A study of Mus musculus with 45 samples.

Results

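Npas4 and the genes for its dimerization partners Arnt and Arnt2 were followed through 9 culture conditions in mouse hippocampal neurons. They were taken by gene symbol, as the 3 of 54532 rows of the count table whose Ensembl identifiers map to these names. All 3 had reads in each of the 45 libraries, so none was lost to a filter on low counts. The study asked how toxic NMDA receptor signaling alters the gene expression that synaptic activity drives, and poly(A) RNA was sequenced from neurons cultured from newborn C57BL/6N mice. The cultures grew at first with B27 and 1% rat serum, and AraC, which limits dividing cells, was added. Before the treatments the medium was changed to one described without B27 or serum. Each condition was run once in each of 5 culture preparations, and these preparations are the replicates. They are named by the number in the library titles, 1, 3, 6, 7 or 8, which was read as the preparation.

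Besides the untreated control, the conditions were 50 µM bicuculline (Bic), a blocker of GABA type A receptors that sets off synchronous action potential firing, for 0.5, 1 or 2 h. In the short protocol (SP) a further drug was added for the last 0.5 h of a 1 h Bic treatment, and in the long protocol (LP) for the last 1 h of a 2 h treatment, so that Bic stayed on throughout. The added drugs were 1 µM tetrodotoxin (TTX), a sodium channel blocker that stops firing, TTX together with 30 µM NMDA, which also engages toxic NMDA receptor signaling, or, in the LP alone, 50 µM TBOA, a blocker of glutamate uptake that lets glutamate spill over from synapses. TTX against Bic of the same total time is called the passive effect, TTX/NMDA against TTX the active effect, and TTX/NMDA against Bic the total effect.

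NPAS4 is a transcription factor of the bHLH-PAS family, in which a basic helix-loop-helix region contacts DNA and PAS domains hold the partners together. Class I members of the family, such as NPAS4, the hypoxia-inducible factors and the aryl hydrocarbon receptor, bind DNA as dimers with a class II member, and ARNT and ARNT2 are the general class II partners. Npas4 is an immediate early gene of neurons that responds to calcium entry and is known for its part in building inhibitory synapses, ARNT2 is the partner enriched in neurons, and ARNT is expressed widely.

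In GRCm38, Npas4 (ENSMUSG00000045903) lies on the minus strand at chr19:4984355-4990316, Arnt (ENSMUSG00000015522) on the plus strand at chr3:95434388-95497240 and Arnt2 (ENSMUSG00000015709) on the minus strand at chr7:84246278-84410176. Their exons cover 4136, 8007 and 7689 bases. Reads that overlapped more than one gene or mapped to several places were not counted, and counting used strand. The pseudogene Gm42672 inside Arnt held 144 reads and the antisense gene Gm30873, which shares exon bases with Arnt2, held 224 reads over all 45 libraries, against at least 191 reads of Arnt and 4859 of Arnt2 in every single library.

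Activity-regulated promoters often carry sites for the CREB family, whose core is CGTCA. The promoter windows in RefSeq, from 250 bases before the annotated start to 50 after it in GRCm38.p6, hold this core 2 times for Npas4, 3 times for Arnt and 0 times for Arnt2, on either strand. It occurs in 20.8% of the 32851 promoter windows of this length, and the full palindrome TGACGTCA, which holds the core on both strands, in 1.79%, among them Arnt's. The stretches with these matches are shown because Npas4 and Arnt share the core and differ in their response to Bic. They lie at chr19:4990129-4990158 on the minus strand, 187 to 158 bases before the RefSeq start of Npas4 and inside the gene as GENCODE M21 draws it, and at chr3:95434151-95434180 on the plus strand, 239 to 210 bases before that of Arnt. Capitals mark CGTCA or its reverse complement.
Npas4: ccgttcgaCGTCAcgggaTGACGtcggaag
Arnt: TGACGTCAatttggttatgaatctcTGACG

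TCGTG, the core bound by NPAS4 dimers, was in none of the 3 windows, against 16.04% of all windows. The same held for ACGTG, a core of hypoxia-inducible factors, against 19.6%. GCGTG is bound by the aryl hydrocarbon receptor with ARNT, and hypoxia-inducible factors bind it too. It was present 1 time in the window of Npas4 and 1 time in that of Arnt, against 32.4% of all windows. No CArG box, the site of serum response factor, was found in the 3 windows, and 1.63% of windows held one. A match or its absence here describes these letters in these windows only.

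The libraries held 11316580 to 81129276 counted reads, with a median of 26239614. Levels are given as CPM, counts relative to a common library total after TMM scaling, which adjusts the totals so that most genes stay level. The 6 neuron markers summed to between 4165 and 6046 CPM in every library. The 4 markers of the oligodendrocyte lineage summed to between 44.4 and 117 CPM. The 4 microglia markers summed to at most 5.34 CPM and the 3 endothelial markers to at most 3.00 CPM, with no listed marker at 0 in all libraries of a condition. The 4 astrocyte markers were higher in LP TTX/NMDA, where they summed to 643 to 1334 CPM, than in LP TTX, where they summed to 363 to 748 CPM. In that comparison 4 of 4 astrocyte markers (median 0.84 on the log2 scale), 3 of 4 markers of the oligodendrocyte lineage (median 0.80), 1 of 4 microglia and 1 of 3 endothelial markers were called higher, and 2 of 6 neuron markers, Map2 and Slc17a7, were called lower. These calls are from edgeR. A second method, DESeq2, called 3 astrocyte, 1 oligodendrocyte lineage, 1 microglia, 0 endothelial and 3 neuron markers in that comparison. The neuron markers summed to 4372 to 5008 CPM in LP TTX/NMDA and to 5224 to 6046 CPM in LP TTX. In bulk RNA, fewer cells of a type and less RNA per cell cannot be told apart.

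Npas4 rose within 0.5 h of Bic and went on rising to 2 h, the highest level of the series. The 5 control libraries had 55.3, 29.9, 40.3, 69.1 and 41.1 CPM in preparations 1, 3, 6, 7 and 8. After 0.5 h of Bic they had 540, 670, 615, 687 and 679 CPM in the same order. The least-induced library thus lay far above every control library, and no condition of the series overlapped with the control. After 1 h of Bic the levels were 1458, 1033, 1285, 1460 and 1540 CPM. After 2 h they were 2473, 2290, 2396, 2258 and 1702 CPM. Each later time lay wholly above the one before it, and preparation 8, the highest at 1 h, was the lowest at 2 h.

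The rise over control had a log2 fold change of 3.76 (SE 0.13, adjusted p = 9.99e-31) at 0.5 h, where 0.289% of the 30133 genes tested passed an adjusted p of 0.05 in edgeR's quasi-likelihood test. It was 4.84 (SE 0.15, adjusted p = 2.30e-26) at 1 h, against 1.16% of genes called, and 5.54 (SE 0.16, adjusted p = 1.99e-24) at 2 h, against 9.02% called. Within preparations this came to 14.8 ± 5.2-fold, 30.3 ± 6.5-fold and 50.9 ± 17.2-fold (SD, n = 5). From 0.5 to 1 h Npas4 rose by 1.08 on the log2 scale (SE 0.08, adjusted p = 4.04e-17, 0.677% of genes called) and from 1 to 2 h by 0.71 (SE 0.09, adjusted p = 3.02e-07, 5.33% called).

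Taken as CPM gained per hour, the first 0.5 h added 1182 ± 130, the second 0.5 h 1434 ± 438 and the hour from 1 to 2 h 869 ± 429 (SD, n = 5). The single preparations spread from 726 to 1836 CPM per hour in the second step and from 162 to 1257 in the third, so the ranges of the steps overlap. The lowest gain of the third step belonged to preparation 8.

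**Figure D1:**
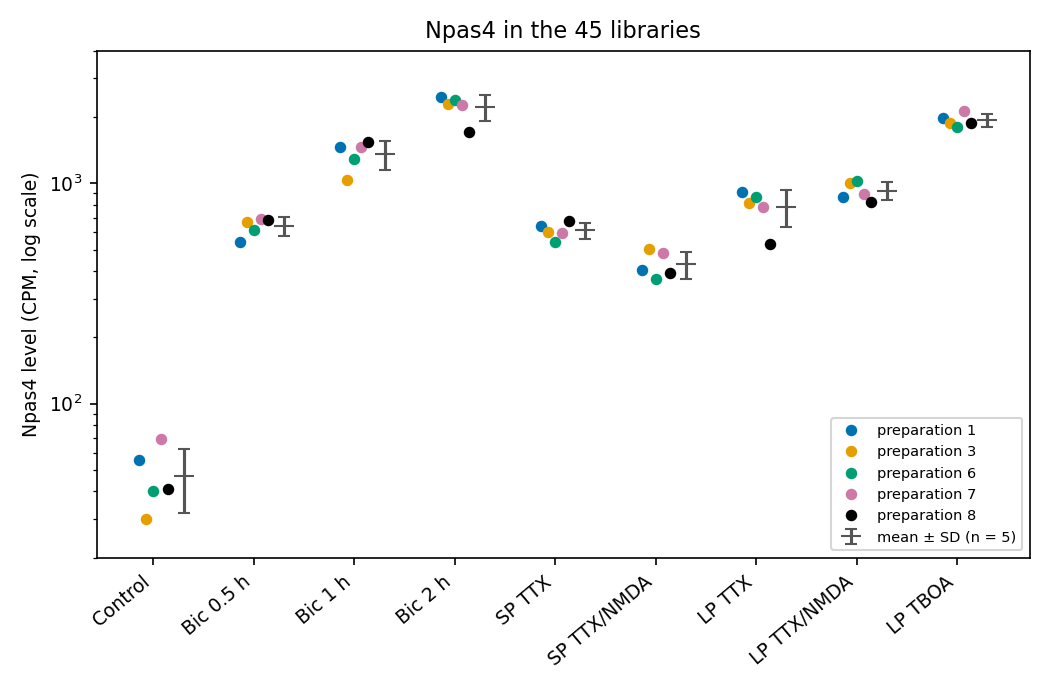
Npas4 level in CPM, on a log axis, in each of the 45 libraries, coloured by culture preparation, with the mean and SD of the 5 libraries of each condition beside the points. The controls, at 29.9 to 69.1 CPM, lie below every other library, and the 2 h Bic and TBOA libraries, at 1702 to 2473 and 1801 to 2127 CPM, lie at the top.

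Stopping the firing in the SP held Npas4 at the level reached when TTX was added. With SP TTX the libraries had 643, 604, 539, 595 and 675 CPM, all below the lowest library after 1 h of Bic. The passive effect was -1.15 on the log2 scale (SE 0.08, adjusted p = 1.95e-12 in edgeR), in a comparison with only 0.268% of 31765 genes called, and the level fell by 54.2 ± 7.2% within preparations. Against 0.5 h of Bic, the time at which TTX went on, the difference was -0.07 (95% interval -0.22 to 0.09, adjusted p = 0.95), with 0.315% of genes called. SP TTX thus stood at 96.6 ± 13.5% of the 0.5 h level (SD, n = 5), from 86.7 to 119% in single preparations.

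Adding NMDA in the SP took Npas4 lower. The SP TTX/NMDA libraries had 402, 501, 368, 481 and 391 CPM, each below every SP TTX library and lower in 5 of 5 preparations. The active effect was -0.52 (SE 0.08, adjusted p = 3.66e-05, 4.28% of genes called), a fall of 29.5 ± 11.1% within preparations. The total effect against 1 h of Bic was -1.67 (SE 0.09, adjusted p = 3.65e-16, 4.3% called). Against the 0.5 h level it was -0.59 (SE 0.08, adjusted p = 9.54e-06, 3.21% called), so SP TTX/NMDA left Npas4 below where it stood when the drugs were added. It was still 9.92 ± 3.97-fold above control.

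In the LP, TTX brought Npas4 down to below the level at which it was added. The LP TTX libraries had 918, 816, 868, 780 and 528 CPM, with preparation 8 the lowest, as it was after 2 h of Bic. The passive effect was -1.52 (SE 0.10, adjusted p = 1.51e-12, 4.65% of genes called), and the fall within preparations was 65.1 ± 2.4%. Against 1 h of Bic the difference was -0.80 (SE 0.10, adjusted p = 1.85e-07, 7.19% called), and LP TTX stood at 59.5 ± 16.8% of that level. Of the Npas4 gained over control by 2 h of Bic, 33.5 ± 2.6% was present with LP TTX, and of that gained by 1 h, 43.9 ± 7.7% with SP TTX.

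In the LP, Npas4 with TTX/NMDA was above its TTX level in most preparations. The LP TTX/NMDA libraries had 867, 1008, 1026, 899 and 825 CPM, higher than LP TTX in 4 of 5 preparations, with overlapping ranges. The active effect was 0.24 (SE 0.10, 95% interval 0.04 to 0.43) and missed the threshold (adjusted p = 0.081) in a comparison with 23.3% of 32852 genes called. With culture preparation as a block, in a fit that like each block fit below also filtered out low genes, it was 0.28 and was called (adjusted p = 0.0022). The filter without the block gave 0.26 (adjusted p = 0.099). Without preparation 1, the preparation with the fall, it was 0.32 (adjusted p = 0.022). On library totals with no TMM factor it was 0.41 (adjusted p = 0.0012). The total effect was -1.28 (SE 0.09, adjusted p = 1.17e-13, 22.8% called), and against 1 h of Bic the difference was -0.56 (SE 0.09, adjusted p = 3.94e-06, 21.1% called).

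The fitted active effect on Npas4 was thus negative and called in the SP, and positive and not called in the LP. The test of the difference, LP minus SP, gave 0.77 on the log2 scale (SE 0.14, adjusted p = 0.00058), where 2.57% of 35027 genes were called, and it was called in each alternative run. The passive effect, LP minus SP, gave -0.37 (95% interval -0.66 to -0.08, adjusted p = 0.76), with 0.256% called. The protocols differ in the time of Bic before the drugs and in the time with them, which cannot be told apart here.

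TBOA left Npas4 near the level of uninterrupted Bic. The LP TBOA libraries had 1974, 1887, 1801, 2127 and 1873 CPM and overlapped with 2 h Bic. The difference was -0.19 (95% interval -0.34 to -0.04, adjusted p = 0.46, 0.602% of genes called), lower in 4 of 5 preparations, with preparation 8 the exception. Without preparation 8 it was -0.26 and was called (adjusted p = 0.018). TBOA libraries stood wholly above LP TTX, by 1.31 (SE 0.09, adjusted p = 1.04e-13, 4.26% called), and above 1 h of Bic, by 0.51 (SE 0.08, adjusted p = 2.66e-05, 3.46% called). LP TTX/NMDA stood wholly below TBOA, with a difference of -1.07 (SE 0.08, adjusted p = 1.43e-12, 16.6% called).

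Ordered by mean level, Npas4 went from control at 47.2 ± 15.2 CPM through SP TTX/NMDA at 429 ± 59, SP TTX at 611 ± 51, 0.5 h Bic at 638 ± 62, LP TTX at 782 ± 151, LP TTX/NMDA at 925 ± 88, 1 h Bic at 1355 ± 203 and TBOA at 1932 ± 125 to 2 h Bic at 2224 ± 304 (SD, n = 5). Of the 8 neighbouring pairs in this order, 4 had overlapping ranges, namely SP TTX with 0.5 h Bic, 0.5 h Bic with LP TTX, LP TTX with LP TTX/NMDA, and TBOA with 2 h Bic. Over the 19 pairwise comparisons Npas4 was called in 16, 7 of them rises and 9 falls.

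Arnt2, the partner gene with the higher level, passed the test at no time of the Bic course and was lower with TTX/NMDA in the LP. The control libraries had 424, 332, 476, 437 and 390 CPM in preparations 1, 3, 6, 7 and 8, and the 2 h Bic libraries 400, 482, 498, 465 and 417 CPM. The differences from control were 0.07 (95% interval -0.11 to 0.25), 0.06 (-0.12 to 0.23) and 0.12 (-0.06 to 0.30) after 0.5, 1 and 2 h, with adjusted p of 0.91, 0.88 and 0.51. The intervals leave room for a rise of up to 0.30 on the log2 scale, whereas the lower bound of Npas4's rise was 3.50 at 0.5 h. TTX alone gave -0.07 (-0.21 to 0.07) in the SP and -0.04 (-0.17 to 0.09) in the LP, and TBOA gave -0.07 (-0.20 to 0.06) against 2 h of Bic.

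The LP TTX libraries had 422, 448, 482, 457 and 406 CPM of Arnt2. With LP TTX/NMDA they had 347, 355, 367, 365 and 353 CPM, every one below the lowest LP TTX library. The difference was -0.32 (SE 0.06, adjusted p = 0.00033 in edgeR), a fall of 19.2 ± 4.1% within preparations. Arnt2 was also lower in LP TTX/NMDA than after 2 h of Bic, with a difference of -0.35 (SE 0.07, adjusted p = 0.00018), than with TBOA, at -0.26 (SE 0.07, adjusted p = 0.0057), and than after 1 h of Bic, at -0.28 (SE 0.07, adjusted p = 0.0031), with no overlap in any of these. These comparisons called 16.6 to 23.3% of all genes, so that a call there is not rare.

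The size of this fall rests on the scaling. The TMM factors of the LP TTX/NMDA libraries were 1.05 to 1.09 and those of LP TTX 0.93 to 0.97. On library totals alone Arnt2 was 383 ± 9 CPM with LP TTX/NMDA and 422 ± 23 with LP TTX (SD, n = 5), and the differences from LP TTX, 2 h Bic, TBOA and 1 h Bic were -0.14, -0.16, -0.12 and -0.15, none of them called (adjusted p = 0.087, 0.052, 0.17 and 0.092). Without the TMM factor the median of the genes with at least 1 CPM stood 0.17 above 0 between LP TTX/NMDA and LP TTX, against -0.01 with it. Of the genes called in that comparison 3807 were higher and 3861 lower with TMM, and 7049 and 2133 without it. The glial and neuron markers given above moved in the same libraries, and their part in the fall was not tested.

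In the SP, Arnt2 with TTX/NMDA had 386, 405, 401, 404 and 356 CPM, and its ranges overlapped with those of SP TTX and of Bic. The active effect was -0.08 (95% interval -0.21 to 0.05, adjusted p = 0.56). Against 1 h of Bic the difference was -0.14 (adjusted p = 0.29) and against 0.5 h -0.16 (adjusted p = 0.25), lower in 5 of 5 preparations in both, and with preparation as a block these were called, at -0.15 and -0.16 (adjusted p = 0.015 and 0.0031). The active effect, LP minus SP, was -0.22 (SE 0.08, adjusted p = 0.17) without the block and -0.23 with it, where it was called (adjusted p = 0.0068). DESeq2 also called it (adjusted p = 0.031).

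Arnt was measured at a low level that moved little. The control libraries had 18.02, 15.13, 19.18, 17.50 and 16.03 CPM and the 2 h Bic libraries 17.58, 18.05, 18.15, 18.05 and 18.51 CPM. Its differences from control were 0.19 (95% interval -0.02 to 0.39), 0.12 (-0.07 to 0.31) and 0.06 (-0.12 to 0.24) after 0.5, 1 and 2 h of Bic (adjusted p = 0.84, 0.66 and 0.75). None of the 19 comparisons called Arnt in edgeR, where 1 passed an unadjusted p of 0.05, and DESeq2 called 1, the same comparison. That was LP TTX/NMDA against 2 h of Bic, in which Arnt had 21.30, 23.18, 20.04, 21.04 and 19.49 CPM, each above every 2 h Bic library.

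This difference was 0.21 (SE 0.08, adjusted p = 0.066), higher in 5 of 5 preparations. The filter on low genes alone gave 0.23 and a call (adjusted p = 0.0081), as did the filter with preparation as a block, at 0.23 (adjusted p = 0.0060). The filter with the block also called the differences of LP TTX/NMDA from LP TTX, TBOA and 1 h of Bic, at 0.13, 0.17 and 0.18 (adjusted p = 0.039, 0.032 and 0.018), and the filter alone did not (adjusted p = 0.098, 0.066 and 0.066). In the fit without either these were 0.11, 0.17 and 0.16. On library totals alone all 4 were called, at 0.28 to 0.40, since this scaling raised the median gene too. The fitted direction, higher in LP TTX/NMDA, was the same under both scalings, whereas Arnt2 was lower under both. In the SP, Arnt was higher with TTX/NMDA than with TTX in 5 of 5 preparations, by 0.11 (95% interval -0.05 to 0.27, adjusted p = 0.53), and TBOA gave 0.06 (-0.09 to 0.21, adjusted p = 0.80) against 2 h of Bic. Between LP TTX/NMDA and 2 h of Bic, edgeR called 4 of 4 astrocyte and 3 of 4 oligodendrocyte lineage markers higher, and DESeq2 called 4 and 1. Of 6 neuron markers edgeR called 1 higher and 2 lower. The part of these markers in the difference of Arnt was not tested.

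**Figure D2:**
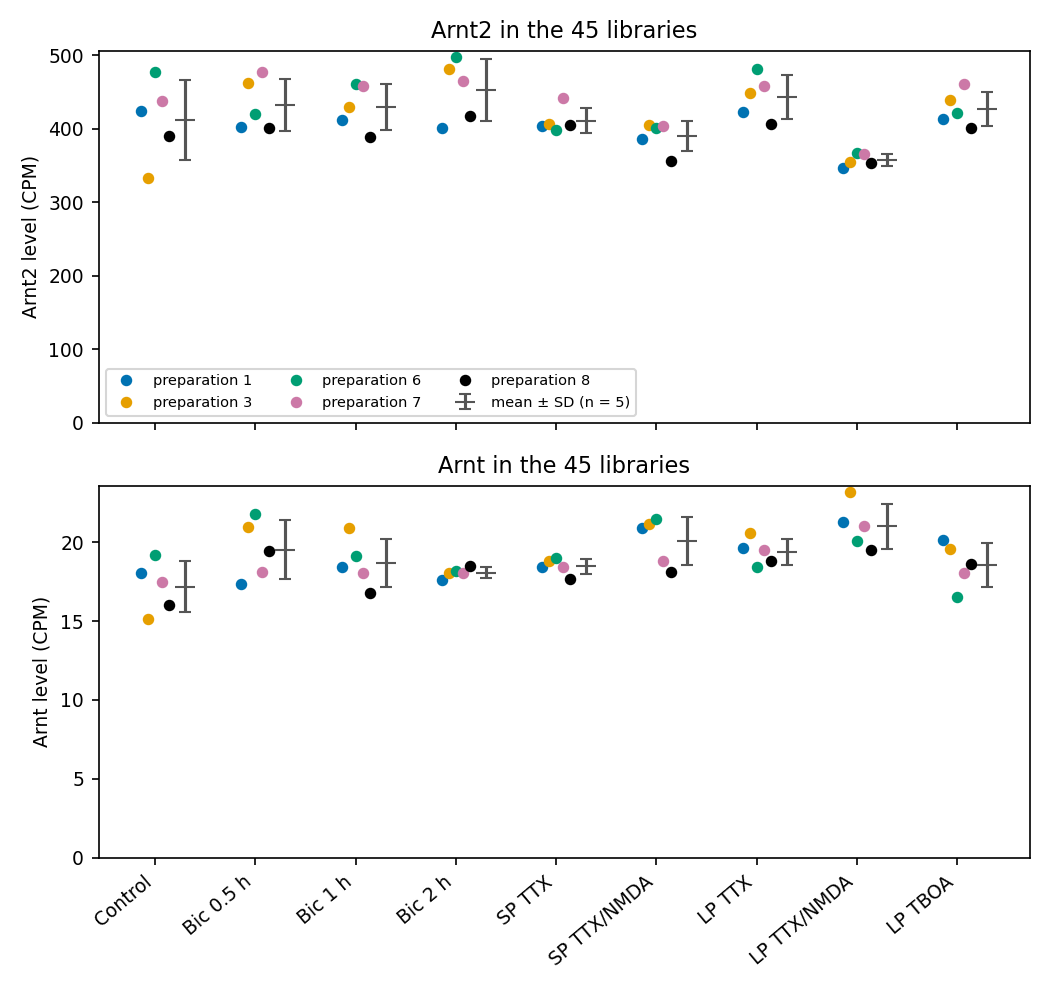
Arnt2 (top) and Arnt (bottom) levels in CPM, on linear axes from 0, in each of the 45 libraries, coloured by culture preparation, with the mean and SD of each condition beside the points. Arnt2 is lowest in LP TTX/NMDA, at 347 to 367 CPM, where Arnt reaches its highest mean, 21.01 CPM.

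**Figure D3:**
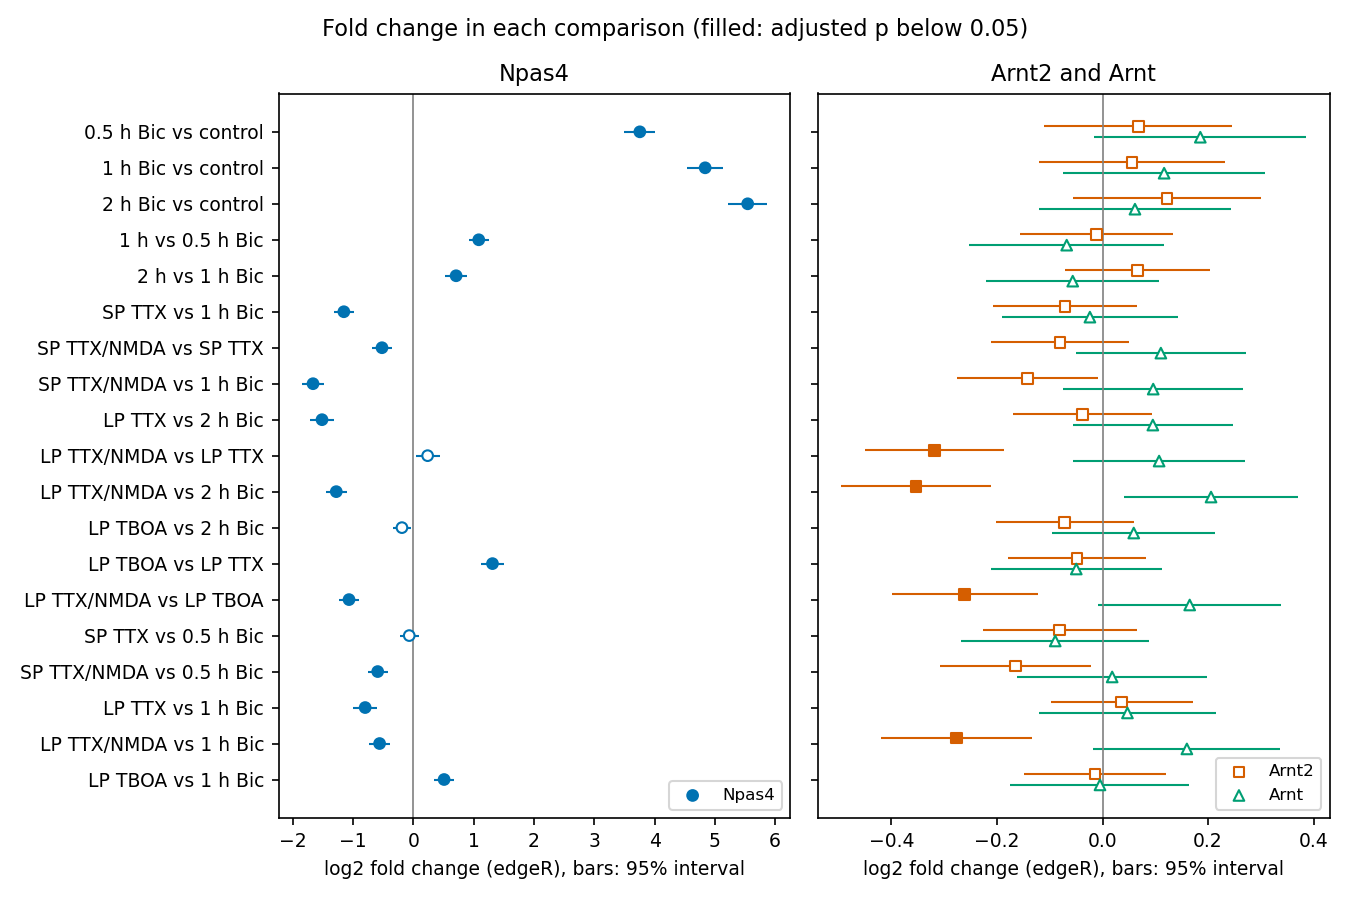
Log2 fold changes of Npas4 (left) and of Arnt2 and Arnt (right, on a narrower axis) in the 19 comparisons, with 95% intervals; filled symbols have an adjusted p below 0.05 in edgeR. Npas4 is filled in 16 comparisons, Arnt2 in 4, each with LP TTX/NMDA, and Arnt in none.

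Across the conditions the means of Npas4 spanned 47.2-fold, those of Arnt 1.22-fold and those of Arnt2 1.27-fold. For Arnt the ranges of all neighbouring conditions in the order of means overlapped, from control at 17.2 ± 1.6 CPM to LP TTX/NMDA at 21.01 ± 1.42 CPM. The same held for Arnt2, from LP TTX/NMDA at 357 ± 8 CPM to 2 h Bic at 452 ± 42 CPM.

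To compare the genes with each other, levels were divided by exon length. Ratios of genes within a library do not depend on the scaling. In CPM per kb of exon, control cultures held 11.4 ± 3.7 of Npas4, 53.6 ± 7.0 of Arnt2 and 2.14 ± 0.20 of Arnt (SD, n = 5). Npas4 transcripts were thus fewer than those of the partners, at 0.203 ± 0.055 per transcript of Arnt and Arnt2 together. After 0.5 h of Bic the ratio was 2.63 ± 0.23 and after 2 h it was 8.84 ± 1.35. No library of any treated condition had a ratio below 1.62. With LP TTX the ratio was 3.14 ± 0.56 and with LP TTX/NMDA 4.55 ± 0.38, and the ranges, 2.31 to 3.87 and 4.12 to 4.97, did not overlap, although those of the Npas4 level itself did. These are ratios of RNA, and protein was not analysed here. Between LP TTX and LP TTX/NMDA the glial and neuron markers moved too, and their part in this ratio was not tested.

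Arnt2 outnumbered Arnt 24.9 ± 1.3 to 1 per length in control and 23.8 ± 2.1 to 1 with LP TTX. The ratio was 20.3 ± 1.3 with SP TTX/NMDA and 17.8 ± 1.3 with LP TTX/NMDA, where its range, 15.9 to 19.04, lay below that of each of the 8 other conditions. Arnt made up 5.35 ± 0.39% of the pair in LP TTX/NMDA and 3.72 to 4.71% on average in the others. As the glial and neuron markers moved with LP TTX/NMDA, their part in the ratio and in this share was not tested.

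**Figure D4:**
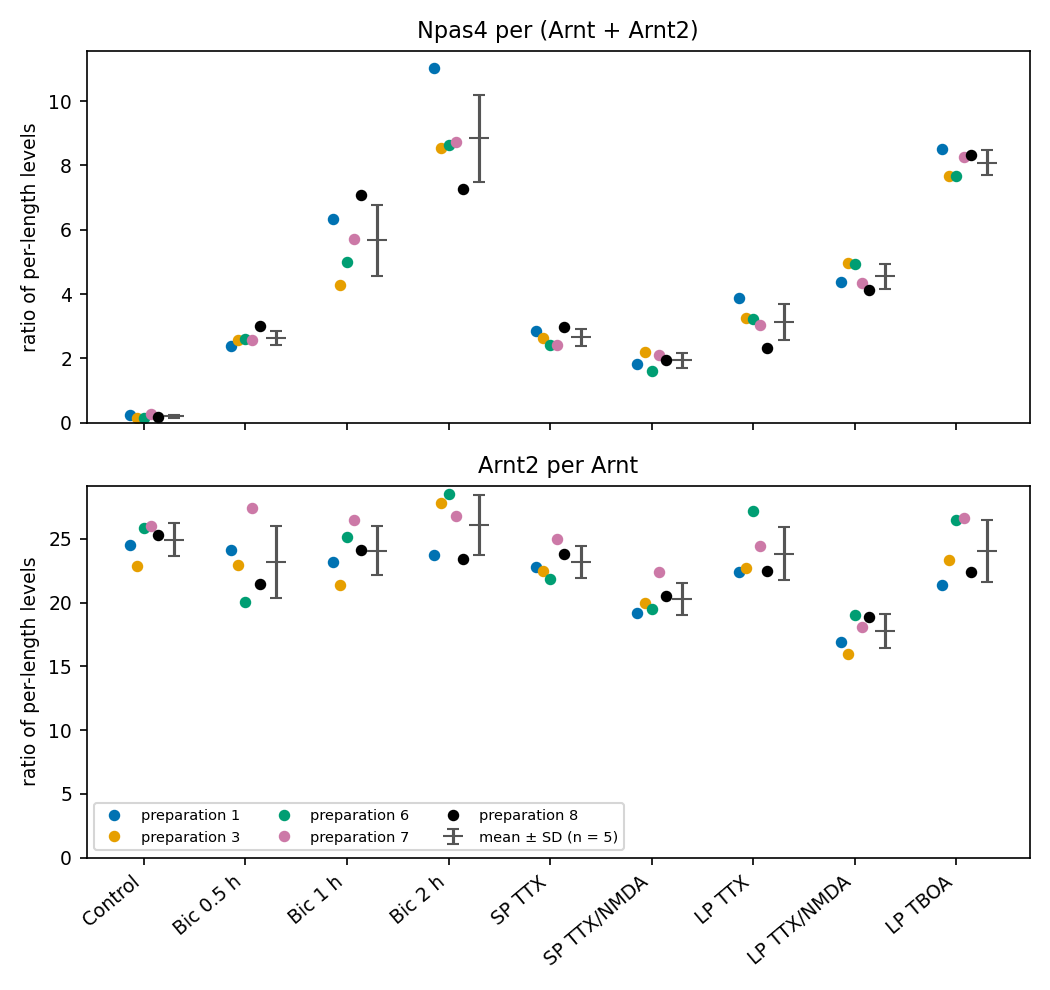
Ratio of Npas4 to Arnt and Arnt2 together (top) and of Arnt2 to Arnt (bottom), each as CPM per kb of exon, in the 45 libraries, coloured by preparation, with the mean and SD of each condition. The upper ratio runs from 0.203 in control to 8.84 after 2 h of Bic, and the lower is smallest in LP TTX/NMDA, at 15.9 to 19.04.

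The genes most like each member were found by Pearson's r over the 45 libraries, on log2(CPM + 1) with the mean of each preparation removed, among 13592 genes with a mean of at least 1 CPM. For Npas4 these were Junb (r = 0.988), Fos (0.984), Egr4 (0.973), Egr1 (0.970) and Fosb (0.968), which encode transcription factors of the AP-1 and EGR families and are immediate early genes themselves. Over the 9 condition means r was 0.971 to 0.992 for these 5. The points share libraries and treatments, so these values describe a pattern.

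For Arnt2 the genes were Iqsec3, Rab6b, Pi4ka, Frmpd3 and L1cam, with r of 0.928 to 0.935. For Arnt they were Rnf152, Cfap69, Stk38, Cntrl and Srrm1, with lower r of 0.723 to 0.736. Ranked instead by r over the 9 condition means, 4 of the 5 genes stayed among the top 5 for Npas4, 1 of 5 for Arnt2 (Rab6b) and 0 of 5 for Arnt, where Stk38 and Srrm1 came to ranks 266 and 279. The members were little alike, with r of 0.254 between Npas4 and Arnt, 0.245 between Npas4 and Arnt2 and -0.161 between Arnt and Arnt2. Over the 9 condition means these values were 0.346, 0.269 and -0.572.

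Of the 11 other class I genes of the family tested, 0 were called after 0.5 h and 0 after 1 h of Bic in edgeR, where 1 of them passed an unadjusted p of 0.05 at each time and DESeq2 called 0. After 2 h Npas1, a transcriptional repressor, rose by 0.39 (SE 0.12, adjusted p = 0.039), and Ahr, the aryl hydrocarbon receptor, and Hif1a, a hypoxia-inducible factor, fell by 0.35 and 0.25 (adjusted p = 0.0099 and 0.032). These 3 of 11 stand beside 9.02% of all genes called at 2 h, and the list median was -0.09, against -0.01 for all genes tested. The count was 5 with the filter and preparation as a block, and 0 without preparation 7.

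With LP TTX/NMDA against LP TTX 4 of the 11 rose and 3 fell, beside 23.3% of all genes called, the median being -0.18 against 0.11 for all genes tested. Without preparation 7 the count called was 4 instead of 7. Epas1, a hypoxia-inducible factor, went from 17.7 ± 2.3 to 34.2 ± 7.5 CPM, a rise of 0.95 (SE 0.11, adjusted p = 1.86e-07), Npas3 rose by 0.54 (SE 0.08), Npas1 by 0.42 (SE 0.13) and Hif3a, with means below 1 CPM in both, by 0.80 (SE 0.27). Ahr fell by 0.45 (SE 0.09) and Clock, a partner of the circadian class II protein BMAL1, by 0.39 (SE 0.07), and Sim1, at or below 0.0841 CPM on average, was also called lower. Hif1a was at -0.18 (adjusted p = 0.10) and was called with preparation as a block, at -0.16 (adjusted p = 0.022). Of the 2 other class II genes, Arntl2 rose by 0.63 (SE 0.18, adjusted p = 0.0085), from 1.598 to 2.437 CPM, and Arntl, which encodes BMAL1, was at 19.2 ± 4.1 and 18.1 ± 2.1 CPM. The glial and neuron markers given above moved in the same comparison, and their part in these changes was not tested.

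Of 6 genes described as NPAS4 targets, Plk2, which encodes a kinase that tunes synapses, rose after 0.5 h of Bic, by 0.64 (SE 0.09, adjusted p = 7.12e-07). After 1 h and after 2 h 4 of 6 were higher and none lower, where 1.16% and 9.02% of all genes were called, with list medians of 0.62 and 1.43 against -0.01 for all genes tested at both times. At 2 h Nptx2, a secreted protein that gathers glutamate receptors, rose by 2.26 (SE 0.14), Plk2 by 2.17 (SE 0.08), Bdnf, a neurotrophin, by 1.497 (SE 0.10) and Scg2, a secretory granule protein, by 1.36 (SE 0.08). Mdm2, the ligase for p53, was at 42.8 ± 2.4 and 43.4 ± 1.9 CPM in control and after 2 h, and Syt10, a calcium sensor of secretion, at 1.98 ± 0.74 and 2.12 ± 0.55 CPM.

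TTX alone in the LP lowered 2 of the 6, beside 4.65% of all genes called, Plk2 by 0.70 (SE 0.07, adjusted p = 9.32e-09) and Nptx2 by 0.51 (SE 0.15, adjusted p = 0.036), while Bdnf was at 306 ± 27 CPM after 2 h of Bic and 321 ± 31 CPM with LP TTX, where Npas4 had fallen. With preparation as a block Scg2 was called lower with LP TTX, at -0.18 (adjusted p = 0.0047), and Mdm2 higher, at 0.21 (adjusted p = 0.0025). Adding NMDA in the LP lowered 4 of 6, beside 23.3% of all genes called, with a list median of -0.92 against 0.11 for all genes tested. In edgeR the 4 astrocyte markers and 3 of 4 oligodendrocyte lineage markers were called higher there and 2 of 6 neuron markers lower. Their part was not tested. Bdnf fell by 1.32 (SE 0.09, adjusted p = 1.70e-12), Syt10 by 1.35 (SE 0.23, adjusted p = 3.70e-05), Nptx2 by 1.14 (SE 0.15, adjusted p = 7.15e-07) and Scg2 by 0.69 (SE 0.08, adjusted p = 1.38e-07). Plk2, at 408 ± 34 and 413 ± 39 CPM, and Mdm2 were not among them. Npas4 itself was higher in 4 of 5 preparations of the same comparison, a difference not called (adjusted p = 0.081 in edgeR). These are levels of RNA, and NPAS4 protein was not analysed.

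In the SP, TTX/NMDA against TTX lowered 4 of 6, beside 4.28% of all genes called, Bdnf by 1.03 (SE 0.09), Plk2 by 0.71 (SE 0.06), Nptx2 by 0.63 (SE 0.13) and Scg2 by 0.34 (SE 0.08), the last in 4 of 5 preparations, beside the fall of Npas4. With preparation as a block Syt10 was called too, at -0.45 (adjusted p = 0.032). Of 6 neuron markers edgeR called 1 higher and 2 lower in this comparison, and 0 of the astrocyte and oligodendrocyte lineage markers. Their part was not tested. The active effect, LP minus SP, was called for Plk2, at 0.73 (SE 0.10, adjusted p = 2.19e-06), and without a block for no other of the 6, while DESeq2 called 2 of them. With preparation as a block Nptx2, Scg2 and Syt10 were called too, at -0.52, -0.34 and -0.90. TBOA against 2 h of Bic lowered 3 of 6, beside 0.602% of all genes called, Nptx2 by 0.85 (SE 0.15), Bdnf by 0.29 (SE 0.07) and Plk2 by 0.28 (SE 0.06), and with the filter and preparation as a block Scg2, at -0.21 (adjusted p = 0.011). These calls rest on the fit, since the filter on low genes alone called 0 of the 6 and leaving out preparation 1 left 1, while DESeq2 called 3.

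**Figure D5:**
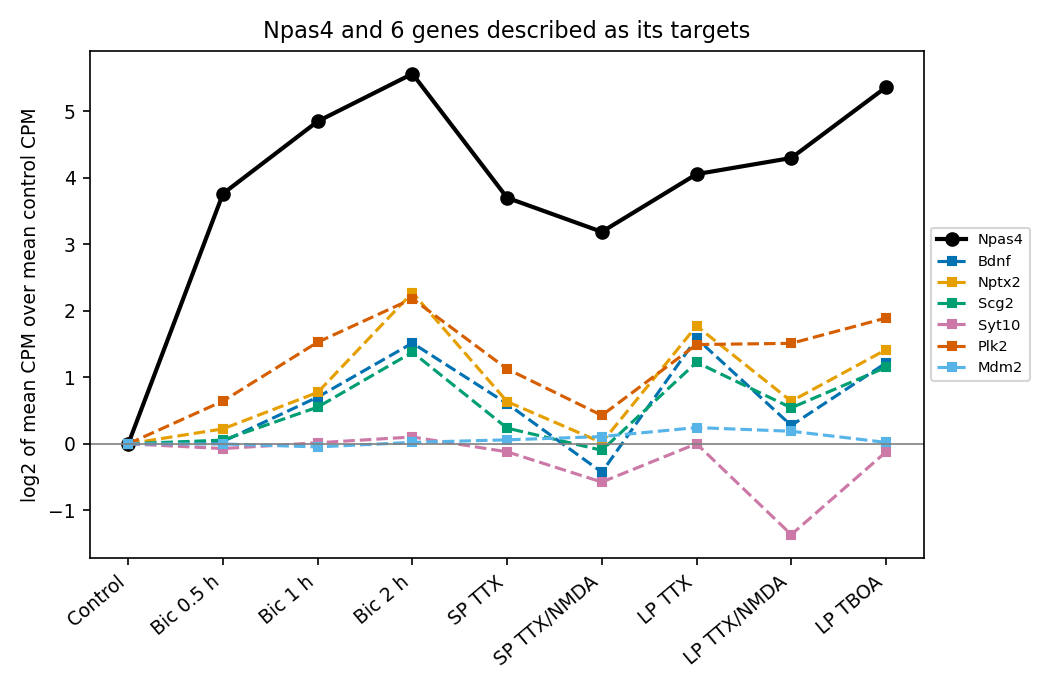
Log2 of the mean CPM of each condition over the mean control CPM (n = 5 each, no error shown) for Npas4 and the 6 genes described as its targets; the lines join values of a gene and mark no time course. Bdnf is higher in LP TTX, at 321 CPM, than in LP TTX/NMDA, at 130 CPM, while Npas4 has 782 and 925 CPM there, a difference not called in edgeR.

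Genes driven by the other partners of ARNT, the hypoxia-inducible factors and the aryl hydrocarbon receptor, were called in part. After 2 h of Bic 3 of 9 rose and none fell, beside 9.02% of all genes called, with a list median of 0.39 against -0.01 for all genes tested. Tiparp, which restrains the aryl hydrocarbon receptor, rose by 3.65 (SE 0.10, adjusted p = 1.25e-25), from 15.2 ± 1.7 to 194 ± 23 CPM, Slc2a1, a glucose transporter, by 1.59 (SE 0.10) and Vegfa, a growth factor for vessels, by 0.66 (SE 0.08). Ldha, a glycolytic enzyme, was at 549 ± 116 and 580 ± 69 CPM.

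With LP TTX/NMDA against LP TTX 2 of the 9 rose and 4 fell, beside 23.3% of all genes called, with a list median of -0.18 against 0.11 for all genes tested. The same glial and neuron markers moved in this comparison, and their part was not tested. Cyp1b1 and Egln3, known targets of the aryl hydrocarbon receptor and of hypoxia-inducible factors, rose by 0.68 (SE 0.18) and 0.65 (SE 0.18), and Pdk1, Tiparp, Slc2a1 and Vegfa fell by 0.62 (SE 0.08), 0.57 (SE 0.09), 0.45 (SE 0.09) and 0.34 (SE 0.08). In the SP the same step lowered Tiparp from 76.9 ± 10.7 to 19.9 ± 3.4 CPM, and the difference between the active effects, LP minus SP, was 1.40 (SE 0.14, adjusted p = 1.34e-08). Its level in LP TTX was 153 ± 14 CPM and in LP TTX/NMDA 104 ± 17 CPM (SD, n = 5).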

How the data were processed

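The authors deposited raw read counts per gene: single-end reads of 75 cycles were mapped with STAR 2.5.4b to GRCm38 with Ensembl release 94 and counted by strand with featureCounts 1.6.5, without multi-mapping or multi-overlapping reads. GENCODE M21 gave names and exon lengths for 54495 of 54532 genes, and RefSeq the promoters. Pairs of conditions were compared with edgeR 4.0.16 (R 4.3.3; quasi-likelihood test, TMM factors, genes with at least 1 read, Benjamini-Hochberg adjusted p below 0.05), tested on simulated data, where the unfiltered fit exceeded its nominal false share when few genes changed. DESeq2 1.42.0 and other fits were alternatives. Library titles carry a number that was read as the culture preparation, since the paper used separate preparations as replicates. Libraries of equal number were thus taken as pairs, and their deviations from condition means correlated at 0.325 to 0.598 on average per comparison. Named genes were the members, listed genes and the 5 genes most like each member. Members and lists were chosen with earlier results of these data known.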

Additional observations from a re-analysis of the deposited data

Results flagged for a closer look

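Of 27 sets of 5 libraries (3 genes in 9 conditions), 2 had a library set apart from the other 4 by Dixon's test, which flags about 1 set in 20 by chance. For Npas4 after 2 h of Bic it was preparation 8, at 1702 CPM against 2258 to 2473 CPM in the others. For Arnt2 with SP TTX it was preparation 7, at 441 CPM against 398 to 407 CPM.

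The active effect (TTX/NMDA against TTX) differed between the LP and the SP by 0.77 on the log2 scale for Npas4, by 0.73 for Plk2 and by 1.40 for Tiparp, in the test of the difference itself.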

How the results depend on the processing

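Each of 63 member results was refitted under 11 alternatives (DESeq2, DESeq2 size factors in edgeR, a filter by expression, that filter with preparation as a block, all 45 libraries in 1 fit, library totals with no TMM factor, which was added after seeing the data, and leaving out each preparation in turn). Of 231 values each, Npas4 kept its direction and side of the threshold in 227, Arnt in 206 and Arnt2 in 217. Of the members, Arnt had the lowest read count in any library, 191. The cause of the changes below was not tested.

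The filter with preparation as a block called, where neither the unfiltered fit nor the filter alone did, Npas4 in LP TTX/NMDA against LP TTX (0.28), Arnt in LP TTX/NMDA against LP TTX (0.13), TBOA (0.17) and 1 h Bic (0.18), and Arnt2 in SP TTX/NMDA against 1 h Bic (-0.15) and 0.5 h Bic (-0.16) and in the active effect, LP minus SP (-0.23, the same with DESeq2). It also called Arnt in LP TTX/NMDA against 2 h Bic (0.23), as the filter alone did (0.23). It changed no other call of the 3 genes. On library totals the same comparisons of LP TTX/NMDA gave 0.41 for Npas4 against LP TTX and 0.28, 0.40, 0.31 and 0.28 for Arnt, all called, and -0.14, -0.16, -0.12 and -0.15 for Arnt2, none called. Arnt in LP TTX/NMDA against 2 h Bic was also called by DESeq2 (0.20) and with all libraries (0.22).

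Signs turned only for differences near 0 that were never called. These were Arnt after 2 h of Bic (-0.0246) and Arnt2 in LP TTX against 1 h Bic (-0.0104) on library totals, Arnt in TBOA against 1 h Bic (0.0070 with DESeq2, 0.0045 with its size factors, 0.000928 after the filter), and the active effect on Arnt, LP minus SP (-0.00234 after the filter, -0.000557 with the block, -0.00228 with all libraries). Leaving out single preparations gave 0.17 to 0.32 for Npas4 in LP TTX/NMDA against LP TTX (called without preparation 1), -0.26 to -0.14 in TBOA against 2 h Bic (called without preparation 8) and 0.19 to 0.24 for Arnt in LP TTX/NMDA against 2 h Bic (called without preparation 8). Signs turned within -0.0382 to 0.0157 for Arnt in SP TTX against 1 h Bic, -0.0182 to 0.0507 in SP TTX/NMDA against 0.5 h Bic, -0.0314 to 0.0477 in TBOA against 1 h Bic and -0.00663 to 0.0210 in the active effect, LP minus SP. For Arnt2 they turned within -0.0198 to 0.137 and -0.0158 to 0.0844 after 0.5 and 1 h of Bic, -0.0444 to 0.0142 between these times, -0.0234 to 0.0303 in TBOA against 1 h Bic and -0.0105 to 0.0686 in the passive effect, LP minus SP.

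The counts over all genes, behind the shares of genes called, moved more than the members did. With the filter alone and then with the filter and the block, they were 312 and 618 at 1 h of Bic (357 unfiltered), 2865 and 4479 at 2 h (2789), 1768 and 3607 between 1 and 2 h (1652), 1408 and 2548 for SP TTX/NMDA against TTX (1379), 1482 and 4217 against 1 h (1351) and 1103 and 4959 against 0.5 h of Bic (992), 1712 and 4978 for LP TTX against 2 h (1485) and 2454 and 4527 against 1 h of Bic (2292), 104 and 417 for TBOA against 2 h (191) and 1108 and 2141 against 1 h of Bic (1095), and 83 and 323 (88) and 1249 and 4165 (900) for the passive and active effects, LP minus SP. DESeq2 called 2335 (LP TTX against 2 h Bic), 315 (TBOA against 2 h Bic), 1718 (SP TTX/NMDA against 0.5 h Bic), 181 (passive) and 1632 (active). The filter gave 35, 104 and 52 against 85, 191 and 99 for SP TTX against 1 h Bic, TBOA against 2 h Bic and SP TTX against 0.5 h Bic, and the fit of all libraries gave 54 and 106 for the first and second of these. Leaving out preparations gave 52 to 163 for the first and 123 to 493 for the second, 499 to 1706 for SP TTX/NMDA against 0.5 h and 801 to 2068 against 1 h of Bic, 918 against SP TTX and 489 for the active effect (both without preparation 1), 909 and 928 for LP TTX against 2 h Bic (without 7 and 6), and 39 to 47 for the passive effect where preparation 1, 3, 6 or 7 was left out.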
